A study of Mus musculus with 24 samples.

Results

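The cells described here are liver NK1.1+CD3e+ lymphocytes that carried transcripts of Cd8a or of Ly49 receptors, in CD1d-deficient and in Jα18-deficient mice. A value was the number of unique molecular identifiers (UMIs, each standing for 1 captured transcript) of a gene per 10000 UMIs of the cell. A cell of at least 10000 UMIs was a member when its Cd8a value was at least 0.5 or when the values of Klra1, Klra5, Klra7 and Klra9 summed to at least 0.5. By this rule 608 of the 1735 cells of the matrix were members of the compared pools, 189 from CD1d-deficient and 419 from Jα18-deficient mice. Another 114 members came from WT mice and are given as a reference.

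Single cells had been sorted from the livers of mice of 8 to 10 weeks and picked by hand. WT mice were C57BL/6, and the strain of the other mice is not stated in the sources used here. Mice without CD1d have no molecule to present lipids to NKT cells of either type, and Jα18-deficient mice lack a receptor segment that type I cells need, so that type II cells can remain in them. As limits of these models, the study notes that the original Jα18-deficient line had lost further Jα segments, which narrows its receptor repertoire, and that its CD1d-deficient mice kept Cd1d2. NK1.1+ T cells that need no CD1d can remain in both genotypes, and no agent was given. The labels name 8 libraries for every genotype, whereas a cell's column names its genotype only, so each genotype was 1 pool. No test between pools was therefore possible, and mouse, library and genotype cannot be told apart. Intervals below are exact 95% intervals that cover counting error only.

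Ly49 receptors are lectin-like proteins of NK cells and some T cells, encoded by the Klra genes, and most of them inhibit the cell on binding MHC class I. Cd8a encodes the alpha chain of the CD8 coreceptor, and many liver T cells that carry NK1.1 without needing CD1d carry CD8 or Ly49 as well. CD1d-dependent NKT cells of mouse liver are known for prompt cytokine secretion, IL-4 included, and CD8+ and NK-like T cells for granzymes and perforin.

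Members made up 83.3% of the CD1d-deficient cells of at least 10000 UMIs (189 of 227, interval 77.8 to 87.9%), 66.3% of the Jα18-deficient ones (419 of 632, 62.5 to 70.0%) and 21.8% of the WT ones (114 of 523, 18.3 to 25.6%). The makeup of the members differed as well. Among CD1d-deficient members, 85 cells (45.0%) passed for both markers, 83 (43.9%) for Ly49 alone and 21 (11.1%) for Cd8a alone. Among Jα18-deficient members these were 101 (24.1%), 307 (73.3%) and 11 cells (2.63%), and among WT members 30 (26.3%), 78 (68.4%) and 6 cells (5.26%). Cd8a with or without Ly49 was thus found in 46.7% of CD1d-deficient cells of that depth, against 17.7% of Jα18-deficient and 6.88% of WT cells. Ly49 with or without Cd8a was found in 74.0%, 64.6% and 20.7%. These shares follow from the rule and are a description.

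**Figure D1:**
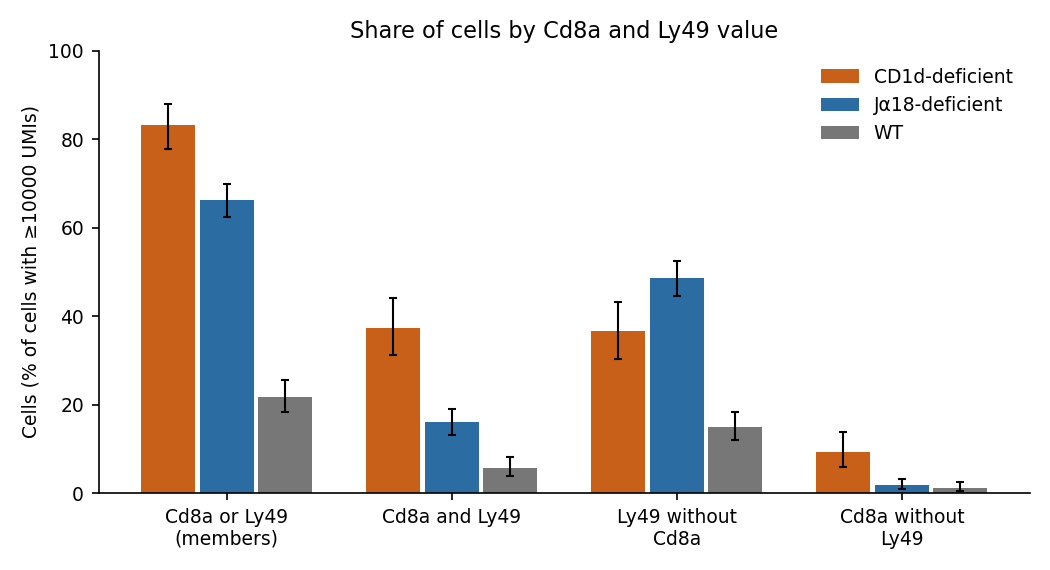
Share of cells of at least 10000 UMIs (y axis, percent) that were members and that fell in each marker class (x axis), for the CD1d-deficient, Jα18-deficient and WT pools, with exact Clopper-Pearson 95% intervals as error bars. Cells with both markers made up 37.4% of the CD1d-deficient and 15.98% of the Jα18-deficient cells, and cells with Ly49 alone 36.6% and 48.6%.

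Near the threshold, the lowest members had a larger marker value of 0.528, 0.540 and 0.566 in the CD1d-deficient pool and of 0.5004, 0.511 and 0.511 in the Jα18-deficient pool. The highest cells left out had 0.465, 0.457 and 0.436, and 0.494, 0.491 and 0.489. Cells close to the threshold were more numerous in the Jα18-deficient pool, where 96 members lay between 0.5 and 1, against 15 in the CD1d-deficient pool. The median of the larger marker value was 14.5 in CD1d-deficient and 8.28 in Jα18-deficient members. A single UMI made the member in 6 CD1d-deficient and 17 Jα18-deficient cells. Of the cells left out, 28 CD1d-deficient and 164 Jα18-deficient ones held a UMI of a marker below the threshold, and 10 and 49 held none.

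The members held 10557304 UMIs in the CD1d-deficient and 36991472 in the Jα18-deficient pool, with medians of 33432 (10000 to 357568) and 53272 (10155 to 492793) UMIs per cell. Levels below are UMIs of a gene per 1000000 UMIs of the pool's members (CPM). Cd1d1, which is disrupted in the CD1d-deficient genotype, had 0 UMIs in its members, where 3 UMIs would be 0.284 CPM, against 17.5 CPM (646 UMIs) in Jα18-deficient and 17.2 CPM in WT members. Its neighbour Cd1d2 had 1 and 25 UMIs. Cd3d, of the T cell receptor complex, had a UMI in 99.5% of CD1d-deficient and 100% of Jα18-deficient members, and Klrb1c, which encodes NK1.1, in 95.2% and 97.4%, so the sorted phenotype was found in nearly every member. Xist had a UMI in 15.9% of CD1d-deficient, 1.67% of Jα18-deficient and 2.63% of WT members, and a Y-linked gene in 38.6%, 67.1% and 65.8%. Both were found in 3, 4 and 3 cells. The sex of the mice moved with the genotype to this extent, and its part in the results was not tested.

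The 4 Ly49 genes of the rule lie together on chromosome 6 (NCBIM37), and Cd8a lies elsewhere on the same chromosome (71323421 to 71329165, plus strand). Klra5 (129849014 to 129867668, minus strand), which encodes Ly49E, differed most: it had 459 CPM in CD1d-deficient, 140 in Jα18-deficient and 291 in WT members, and a UMI in 61.4%, 44.6% and 28.9% of them. Its log2 ratio of CD1d-deficient over Jα18-deficient CPM was 2.42 in Ly49 cells without Cd8a. In cells with both markers it was 0.70, and in Cd8a cells without Ly49 0.52, each within 2-fold. The other Ly49 genes of the rule were within 2-fold over all members. Klra1 (Ly49A) had 246 and 300 CPM in the CD1d-deficient and Jα18-deficient members, Klra7 (Ly49G) 618 and 777, and Klra9 (Ly49I) 314 and 284. Their order depended on the marker class: in cells with both markers, Klra1 had 108 CPM in CD1d-deficient and 331 in Jα18-deficient cells, and Klra7 had 660 and 1305. In Ly49 cells without Cd8a, Klra1 had 438 and 303 CPM and Klra7 742 and 667. Cd8a itself had 579 CPM in CD1d-deficient, 214 in Jα18-deficient and 485 in WT members. Within the cells that held both markers, which the rule chose by Cd8a itself, it had 907 and 962 CPM. In Cd8a cells without Ly49 (21 and 11 cells) its log2 ratio was 1.80. A smaller share of Jα18-deficient members passed for Cd8a, and the part of this in its lower level was not tested. Cd8b1, the partner chain of CD8, had 29.0 and 28.6 CPM and a UMI in 6.88% and 11.2% of members.

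Of 12 Ly49 genes listed, 3 had no UMI in either pool and 4 were below the filter. Klra8, which encodes the activating receptor Ly49H, was among these 4, with 33.3 CPM in CD1d-deficient and 2.62 in Jα18-deficient members. A single cell held 89.2% of its CD1d-deficient UMIs. Klra3 (Ly49C), which passed the filter and was not part of the rule, had 67.8 and 115 CPM, a log2 ratio of -0.76 (-0.88 to -0.65). The Ly49 genes are alike in sequence, so UMIs may be split between them, and values of single Klra genes are uncertain to that extent.

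Across the transcriptome, 4732 genes passed a filter of 25 CPM and 10% of cells, each as a mean of both pools. Of these, 275 (5.81%) were at least 2-fold higher in CD1d-deficient members and 320 (6.76%) at least 2-fold higher in Jα18-deficient members, or 595 (12.6%) in either direction, and the median log2 ratio of CD1d-deficient over Jα18-deficient CPM was -0.05. Many of these calls depended on how cells were weighted, thinned or chosen. When cells weighed the same, were thinned to 10000 UMIs, were limited to 60000 UMIs, or lost the cell with the most UMIs of the gene in each pool, 32 of the 275 genes (11.6%) and 72 of the 320 (22.5%) were called each time. Leaving out the cell with the most UMIs of the gene alone kept 121 of the 275 and 238 of the 320. Below, the share of the richest cell is given where 1 cell held much of a gene's UMIs.

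**Figure D2:**
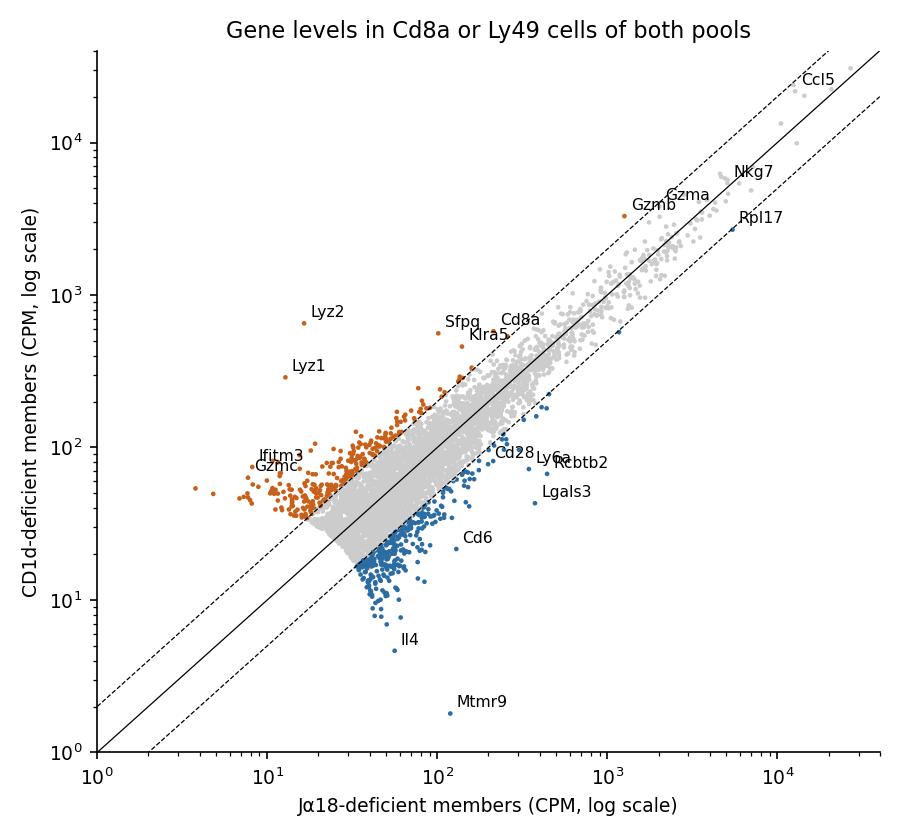
Level of each of the 4732 genes in Jα18-deficient members (x axis, CPM, log scale) and CD1d-deficient members (y axis, CPM, log scale). The solid line marks the same level and the dashed lines 2-fold, with genes at least 2-fold higher in CD1d-deficient members in orange and in Jα18-deficient members in blue. Lyz2 lies at 652 against 16.5 CPM and Mtmr9 at 1.80 against 119 CPM.

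Several of the genes with the largest ratios differed between the pools in the cells without either marker as well. Lyz2 (chromosome 10, 116714390 to 116719377, minus strand), which encodes the lysozyme of macrophages, had 652 CPM in CD1d-deficient, 16.5 in Jα18-deficient and 74.5 in WT members, and a UMI in 97.4%, 37.2% and 41.2% of them. The log2 ratio was 5.31 (5.19 to 5.43) in members and 5.34 in the 38 and 213 cells of these pools without either marker. Lyz1, its sister gene, had 288 and 12.8 CPM, and the interferon-induced membrane protein genes Ifitm3 and Ifitm2 had 74.5 against 8.16 and 57.2 against 8.22 CPM. The MHC class II genes H2-Aa and H2-Ab1 and their invariant chain Cd74, which antigen-presenting cells use, had log2 ratios of 1.82, 1.64 and 1.45. A single cell held 41.5%, 50.2% and 43.5% of their Jα18-deficient UMIs, and without the richest cell of each pool the ratios were 2.48, 2.56 and 2.18.

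Lyz2, Lyz1, Ifitm3, Ifitm2, H2-Aa, H2-Ab1 and Cd74 had a UMI in 66.7 to 97.4% of CD1d-deficient and in 23.4 to 37.2% of Jα18-deficient members. The lower and upper quartiles of the Lyz2 value were 1.55 and 9.57 per 10000 UMIs in CD1d-deficient members, whereas the median Jα18-deficient member had 0. Of 11 markers of myeloid and antigen-presenting cells, 5 passed the filter and 4 of these were at least 2-fold higher in CD1d-deficient members (5.81% of all genes), with Cst3 within 2-fold. The list summed to 1117 CPM in CD1d-deficient, 306 in Jα18-deficient and 350 in WT members. Without Lyz2 its other 10 genes summed to 465 and 290 CPM in the compared pools, a ratio of 1.60. Adgre1, which defines macrophages, had 21 UMIs in CD1d-deficient and 1 in Jα18-deficient members, C1qa had 6 and 18, and S100a9 was at 0 in both. These counts are not scaled, and the Jα18-deficient members held more UMIs in all, 36991472 against 10557304. Apoe, at 105 and 35.4 CPM, and Ctss, at 79.2 and 23.9 CPM, were chosen after their values were seen and differed the same way. Hepatocyte markers summed to 33.7 and 33.8 CPM, and B cell markers to 26.7 and 24.3 CPM. The part of RNA from other cells in the results was not tested.

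Other genes were higher in the Jα18-deficient pool with or without the markers. Mtmr9 (chromosome 14, 64142453 to 64162790, minus strand), a myotubularin-related gene, had 1.80 CPM in CD1d-deficient, 119 in Jα18-deficient and 2.49 in WT members, a log2 ratio of -6.05 (-6.78 to -5.41). Rcbtb2 had 67.2, 442 and 89.1 CPM, and Lgals3, which encodes galectin-3, had 43.1, 375 and 18.1 CPM. In cells without either marker the log2 ratios were -5.06, -2.43 and -1.67. Their levels in WT members were near those of CD1d-deficient members, or below them for Lgals3.

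The remaining genes with the 12 largest ratios were Gzmc, which is described below, and Smarcad1, Ube2l6, Racgap1, Kdm4c, Ints7, Cyb561a3 and Mfsd6, with log2 ratios of 2.71 to 3.83. In 6 of these 7 genes, all but Kdm4c, a single cell held 52.3 to 69.7% of the CD1d-deficient UMIs. The remaining genes with the 12 smallest ratios were Il4, Cd6, Stard4, Mef2d, Tnfrsf26, Arhgap26, Marf1, Nfkbid and Ggact, with log2 ratios of -2.45 to -3.60. Of these, Cd6, Mef2d, Tnfrsf26, Marf1 and Nfkbid were called under each of the 4 weightings of cells given above. Il4, Stard4, Arhgap26 and Ggact were not. Cyb561a3 and Arhgap26 turned to -0.32 and 0.27 in members of at most 60000 UMIs.

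**Figure D3:**
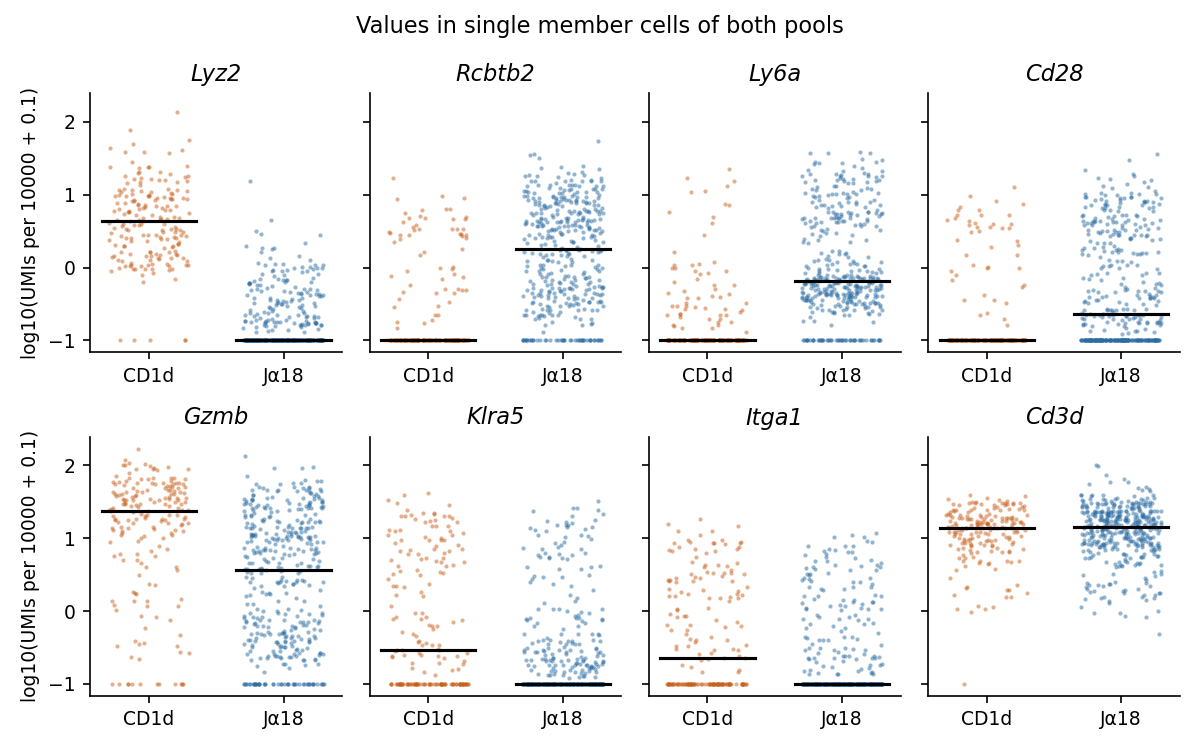
Values of 8 genes in single members of the CD1d-deficient (orange, 189 cells) and Jα18-deficient pool (blue, 419 cells), as log10 of UMIs per 10000 plus 0.1, with the median as a black bar and cells without a UMI at the bottom. Lyz2 has a median of 4.23 against 0, Rcbtb2 of 0 against 1.69 with ranges that overlap, Gzmb has a median of 23.8 against 3.54, and Cd3d lies at the same height in both pools.

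Most genes listed as known from CD1d-dependent NKT cells were lower in CD1d-deficient members. Of 12 such genes 10 passed the filter, and 8 of these were at least 2-fold higher in Jα18-deficient members (6.76% of all genes), with a median log2 ratio of -1.30 beside -0.05 over all genes. The list was written with earlier results of these data known. From these same cells the study reported Il4, Icos, Ly6a, Cd28, Cd40lg, Cd5 and Ccr2 as higher in its CD1d-dependent subset. The study had named that subset by comparing these same genotypes, so the list is not independent of the comparison made here. Il4 (chromosome 11, 53416484 to 53432171, minus strand), the T helper 2 cytokine, had 4.64 CPM in CD1d-deficient, 56.1 in Jα18-deficient and 45.9 in WT members, a log2 ratio of -3.60 (-4.04 to -3.19). It had a UMI in 4.76% of CD1d-deficient members, against 36.0% and 32.5%. The CD1d-deficient pool was thus the lowest of the 3 pools in both level and share. Of the 8 genes, 6 were called under each of the 4 weightings of cells given above, whereas Il4 fell below the filter in thinned cells and Slamf6 lost its call in 3 weightings.

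Ly6a (chromosome 15, 74825308 to 74828064, minus strand), which encodes the surface protein Sca-1, had 72.2 CPM in CD1d-deficient, 346 in Jα18-deficient and 292.5 in WT members, a log2 ratio of -2.26 (-2.37 to -2.15). After thinning to 10000 UMIs per cell, it had a UMI in 12.2% of CD1d-deficient and 52.5% of Jα18-deficient members. The costimulatory receptors Icos and Cd28 had 34.6 against 122 CPM and 77.8 against 199 CPM. Their WT levels were 50.7 and 146 CPM, between those of the compared pools.

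Cd5, an inhibitor of T cell receptor signalling, had a log2 ratio of -1.26, Izumo1r, the folate receptor 4 gene, of -1.35, the SLAM receptor Slamf6 of -1.22 and the chemokine receptor Ccr2 of -1.20. Cd40lg, the ligand of CD40, had 35.05 and 69.7 CPM, just within 2-fold. Serpina3f, which encodes a serine protease inhibitor, was the exception, with 38.8 CPM in CD1d-deficient and 12.2 in Jα18-deficient members, where 1 cell held 49.0% of the CD1d-deficient UMIs. Zbtb16, which encodes the transcription factor PLZF of NKT cells, and Maf were below the filter. Zbtb16 had 17.0 and 16.8 CPM, and a single cell held 88.8% of its CD1d-deficient UMIs. Cd6, a receptor related to Cd5 and no member of that list, had 21.6 and 129 CPM, a log2 ratio of -2.58 (-2.78 to -2.39).

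Some genes of cytotoxic granules were higher in CD1d-deficient members and most were within 2-fold. Of 14 that passed the filter, 5 were at least 2-fold higher in CD1d-deficient (5.81% of all genes) and 0 in Jα18-deficient members, 9 were within 2-fold, and the median log2 ratio was 0.53. Gzmb and Gzmc were called under each of the 4 weightings of cells. Without the richest cells Prf1 was at 0.94 and Serpinb6b at 0.74, and Tnfsf10 was at 0.41 in members of at most 60000 UMIs. Gzmb (chromosome 14, 56877693 to 56881097, minus strand), the gene of granzyme B, had 3292 CPM in CD1d-deficient, 1260 in Jα18-deficient and 2644 in WT members, a log2 ratio of 1.39 (1.37 to 1.41). The WT level lay between the compared pools and closer to the CD1d-deficient one.

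Prf1, the gene of the pore-forming perforin, had 116 and 57.1 CPM, and Tnfsf10, which encodes the death ligand TRAIL, had 126 and 61.7 CPM. Gzmc had 63.4 and 7.70 CPM and a UMI in 26.98% and 9.31% of members, and Serpinb6b, a protease inhibitor gene, had 215 and 106 CPM. Gzma, the granzyme A gene, had 3805 CPM in CD1d-deficient, 2021 in Jα18-deficient and 3067 in WT members, within 2-fold at a log2 ratio of 0.91 (0.90 to 0.93). Nkg7, a granule protein gene of all cytotoxic lymphocytes, had 5409 and 5084 CPM, so the granule genes did not differ as a block.

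Most activating NK receptor and adaptor genes were within 2-fold. Of 9, 2 were at least 2-fold higher in CD1d-deficient members (5.81% of all genes) and 0 in Jα18-deficient ones, and the median log2 ratio was 0.69. Without the richest cell of each pool neither of the 2, Cd244 at 0.95 and Fcgr3 at 0.74, was called. The SLAM family receptor Cd244 had 149.5 and 74.0 CPM, with a UMI in 60.3% and 39.9% of members, and the Fc receptor Fcgr3 had 76.8 and 36.9 CPM. Tyrobp, the adaptor DAP12 of activating receptors, had 2996 CPM in CD1d-deficient, 1756 in Jα18-deficient and 2061 in WT members, and the adaptor Fcer1g had 3263, 2029 and 2315 CPM. Both adaptors were within 2-fold.

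Of 10 NKG2 and other Klr genes, 4 were at least 2-fold higher in CD1d-deficient (5.81% of all genes) and 0 in Jα18-deficient members, and 6 were within 2-fold. Of the 4, Klrb1f alone was called under each of the 4 weightings of cells, and Klrc2 had a log2 ratio of 0.17 in members of at most 60000 UMIs. Klrb1f, a relative of NK1.1, had 135 and 53.7 CPM, and Klrc2, the activating NKG2C gene, had 65.0 and 11.8 CPM. Klri2 had 64.4 and 31.1 CPM and Klrb1b 53.1 and 13.5 CPM, where 1 cell held 31.5% and 62.2% of the CD1d-deficient UMIs. The abundant CD94 gene Klrd1 had 1848 and 1283 CPM, and its partner Klrc1, the inhibitory NKG2A gene, had 1410 and 1018 CPM, both within 2-fold.

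Chemokines and their receptors differed gene by gene. Ccl5, a chemokine that attracts T cells and the most abundant gene of its list, had 21716 CPM in CD1d-deficient, 12718 in Jα18-deficient and 13071 in WT members, a log2 ratio of 0.77. Ccl4, another chemokine gene, had 535 and 259 CPM, with 36.0% of the CD1d-deficient UMIs in 1 cell. Ccl4 lost its call when cells weighed the same, were thinned or lost the richest cell of each pool. Cxcr6 and Cxcr3, the receptors of many liver T cells, were within 2-fold at 1187 and 1054 CPM and at 774 and 604 CPM. Ifng, the interferon gamma gene, had 110 and 114 CPM.

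Of 6 residency genes that passed the filter, Itga1 and Ahr were at least 2-fold higher in CD1d-deficient members (5.81% of all genes) and 0 in Jα18-deficient ones. Itga1 was called under each of the 4 weightings of cells, and Ahr fell below the filter in 3 of them. Itga1, which encodes the collagen-binding integrin CD49a, had 191 CPM in CD1d-deficient, 82.8 in Jα18-deficient and 64.0 in WT members, and the aryl hydrocarbon receptor gene Ahr had 42.9, 8.11 and 30.8 CPM. Itga2, which encodes CD49b, had 53.2 and 22.9 CPM, with 42.5% of the CD1d-deficient UMIs in 1 cell. Of 12 circulation and memory genes, 4 were at least 2-fold higher in Jα18-deficient (6.76% of all genes) and 1 in CD1d-deficient members (5.81%), and 7 were within 2-fold. Their median log2 ratio was -0.68 over all members. It was -0.71 in Ly49 cells without Cd8a and -0.04 in cells with both markers. Under each of the 4 weightings of cells Satb1 and Ly6c1 were called, whereas Klf2 was at -0.94 in thinned cells and Foxo1 at -0.58 in members of at most 60000 UMIs.

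The 4 genes were Klf2 at 21.1 and 61.1 CPM, a regulator of lymphocyte exit from tissue, Satb1 at 41.1 and 154 CPM, a chromatin organizer of T cells, Foxo1 at 21.3 and 54.6 CPM, and Ly6c1 at 44.7 and 126 CPM. The WT levels of Satb1 and Ly6c1 were 100.5 and 79.5 CPM, again between the compared pools. Bach2, the gene higher in CD1d-deficient members, had 47.3 and 22.9 CPM, but 1 cell held 67.1% of its CD1d-deficient UMIs. Il7r, the interleukin 7 receptor gene, had 173 and 274 CPM, within 2-fold.

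**Figure D4:**
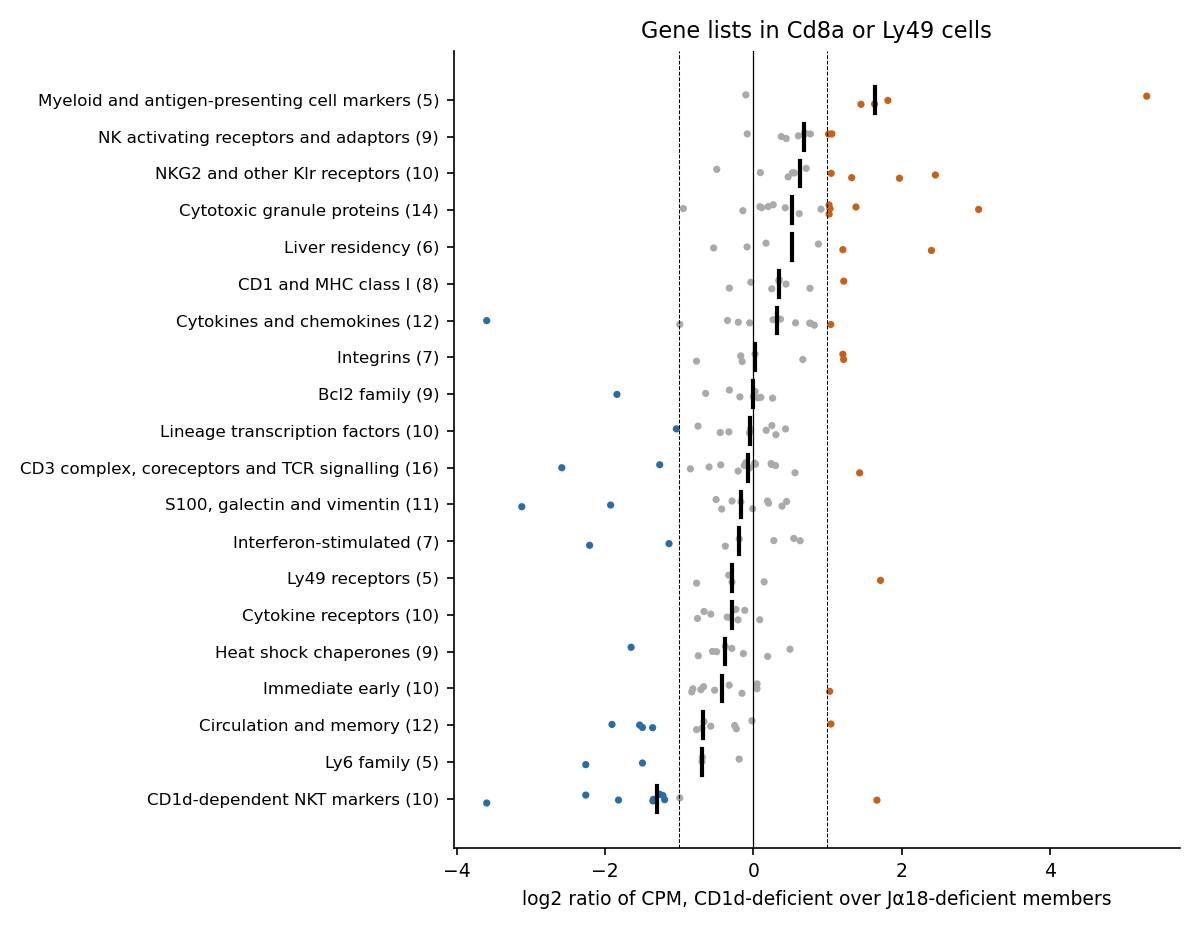
Log2 ratio of CD1d-deficient over Jα18-deficient member CPM (x axis) for the genes of 20 lists (y axis, number of genes that passed the filter in brackets), with the median of each list as a black bar and dashed lines at 2-fold. The list of CD1d-dependent NKT markers has the lowest median, -1.30, and the myeloid markers the highest, 1.64.

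Both the NKT and the NK genes were compared within marker classes, since the pools differ in their makeup. In Ly49 cells without Cd8a, the NKT list had a median log2 ratio of -1.63, and in cells with both markers of -0.32. For the activating receptors and adaptors these medians were 0.94 and -0.17, and for the granule genes 0.53 and 0.34. The median ratios of NKT genes and NK receptor genes were thus farther from 0 in Ly49 cells without Cd8a. That difference between the classes was not tested. Among the genes named here that were past 2-fold over all members, the order of the pools was the opposite in cells with both markers for Cd28, Izumo1r, Slamf6, Serpina3f, Cd244, Fcgr3, Klrb1b, Itga2, Ly6c1, Stmn1, Ints7 and Cd8a, and in Ly49 cells without Cd8a for Serpinb6b and Ccl4. Anxa1 had nearly the same level in the cells with both markers of the compared pools.

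Gzmb had 2532 CPM in CD1d-deficient and 816 in Jα18-deficient Ly49 cells without Cd8a, and 3549 and 2880 CPM in cells with both markers. The WT cells of these classes had 1693 and 5126 CPM. Tyrobp had 2495 and 1290 CPM without Cd8a, and 3193 and 3475 CPM with both markers, where the order of the pools was the opposite. Cd244 had 130 and 51.0 CPM without Cd8a and 122 and 156 CPM with both. In all 3 genes the cells with both markers of the Jα18-deficient pool were above its other Ly49 cells.

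Cd28 had 82.4 and 238 CPM in Ly49 cells without Cd8a, and 59.4 and 47.9 CPM in cells with both markers. Icos had 17.9 and 135 CPM in the first class and 20.6 and 39.2 CPM in the second. Il4 had 3.11 and 63.3 CPM, and 7.62 and 34.9 CPM. Ly6a had 88.2 and 411 CPM, and 47.5 and 124 CPM, lower in CD1d-deficient cells of both classes. Lyz2, by contrast, had ratios of the same size in these classes, with log2 ratios of 5.29 and 5.32.

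In the cells without either marker, 38 from CD1d-deficient and 213 from Jα18-deficient mice, the NKT list had a median log2 ratio of -0.53. Il4 had 145 and 107 CPM there and Icos 365 and 195 CPM, each higher in the CD1d-deficient pool, while Ly6a had 290 and 828 CPM. Gzmb had 997 and 437 CPM, Gzma 1654 and 136 CPM and Tyrobp 995 and 220 CPM. Summed over these 38 cells, both NKT and granule transcripts were thus present. Of them, 28 held a UMI of a marker below the threshold.

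**Figure D5:**
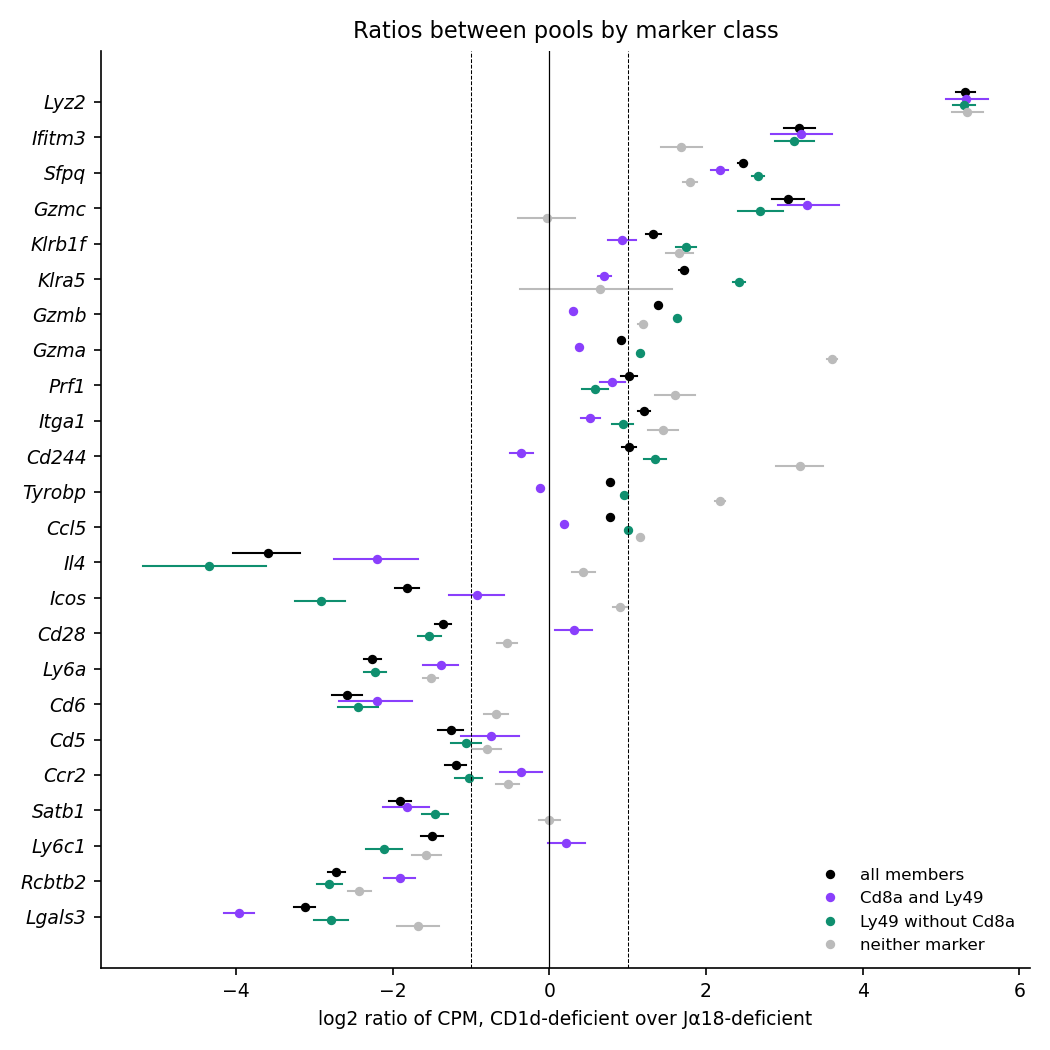
Log2 ratio of CD1d-deficient over Jα18-deficient CPM (x axis) for 24 genes (y axis) in all members, in cells with both markers, in Ly49 cells without Cd8a and in cells with neither marker, with exact 95% counting intervals as lines and dashed lines at 2-fold. For Tyrobp the ratio is 0.95 in Ly49 cells without Cd8a and -0.12 in cells with both markers, whereas Lyz2 has 5.29 and 5.32.

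Among the remaining lists, most genes were within 2-fold, as over all 4732 genes, of which 12.6% were past it in either direction. Of the transcription factors that set lymphocyte lineages, 9 of 10 were within 2-fold, and Ikzf2, the Helios gene, had 20.7 and 42.4 CPM. Tbx21, which encodes T-bet, had 195 and 244.5 CPM. Eomes was below the filter, with 6 UMIs in CD1d-deficient and 190 in Jα18-deficient members, not scaled to the totals of the pools. In the interferon-stimulated list, Isg15 had 10.04 and 46.4 CPM and Bst2 53.5 and 118 CPM, and 5 of 7 genes were within 2-fold. The immediate early gene Jun had 327 and 160 CPM, and 9 of 10 such genes were within 2-fold. Isg15 lost its call under each of the 4 weightings of cells. Jun lost its call when cells weighed the same, were thinned or were limited to 60000 UMIs.

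Single genes past 2-fold in other lists were Stmn1, a tubulin regulator of dividing cells, with 11.1 and 50.3 CPM, the survival gene Bcl2a1d with 16.7 and 59.6 CPM, the chaperone gene Hspa1a with 14.4 and 45.1 CPM, Anxa1 with 21.3 and 80.9 CPM, and the MHC class Ib gene H2-M3 with 151 and 64.6 CPM. A single cell held 70.9% of the CD1d-deficient UMIs of Stmn1, which lost its call under each of the 4 weightings of cells. Bcl2a1d, Hspa1a, Anxa1 and H2-M3 lost theirs when cells weighed the same, were thinned or were limited to 60000 UMIs. For Ikzf2, Bst2 and Anxa1 the order of the pools turned in members of at most 60000 UMIs, with log2 ratios of 0.27, 0.19 and 0.27, as it did for Klri2 at -0.86 and Bach2 at -0.68. B2m, the light chain of MHC class I, had 13330 and 10494 CPM. Of all genes, 12.6% were past 2-fold in either direction. The genes of 12 glycolytic enzymes, 10 cytokine receptors, 8 housekeeping proteins and 70 subunits of oxidative phosphorylation were all within 2-fold, as were 76 of 77 ribosomal protein genes.

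The exception was Rpl17, at 2684 CPM in CD1d-deficient, 5448 in Jα18-deficient and 5431 in WT members. It was named after its value was seen, as were 3 genes higher in CD1d-deficient members under every weighting of the cells. Sfpq, a splicing factor gene, had 561 CPM in CD1d-deficient, 101 in Jα18-deficient and 124 in WT members, with a UMI in 87.3%, 64.2% and 52.6%. Gem, a small GTPase gene, had 245, 77.3 and 151 CPM, and Lilr4b, a receptor gene of leukocytes, had 68.2, 17.4 and 7.47 CPM. Sfpq was also higher in cells without either marker, at a log2 ratio of 1.79.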

How the data were processed

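Liver NK1.1+CD3e+ cells of 3 genotypes were sequenced singly with UMIs. The deposited values are UMI counts per gene and cell, not normalized. According to the methods, the authors trimmed reads with Cutadapt 1.15, aligned them to mm9 with Tophat 2.0.12 and counted transcripts with HTSeq 0.10.0, and whether strand was used is not given in the sources used here. The matrix holds 24447 genes and 1735 cells, of 789 to 598221 UMIs, so cells shallower than the stated filter of 10000 UMIs are in it. Cell names give the genotype and a number, with no barcode or library, so shared barcodes could not be counted and tests laid out by library were replaced by pools. The number and sex of the mice are not given in the sources used here. No doublet caller was run.

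UMIs of the members were summed per pool and scaled to CPM. Genes needed a mean of 25 CPM and 10% of cells over both pools, and were called at 2-fold, with no p-value. Sums have exact Poisson, shares exact Clopper-Pearson and ratios exact conditional binomial 95% intervals. For thinning, each cell was drawn down to 10000 UMIs. The ratios and intervals were tested on simulated sums of the pools, drawn with counting error only. That simulation held no spread between cells, so it cannot judge calls that rested on few cells. Positions are from the NCBIM37 annotation, the build called mm9. Named were the genes of the rule with Cd1d1 and Cd1d2, the 12 largest and 12 smallest ratios, each list's genes past 2-fold and its 2 most abundant, and markers of other cell types. Genes named outside this rule (Klra3, Klra8, Klrb1c, Cd8b1, Cd40lg, Zbtb16, Maf, Ifng, Eomes and those marked in the text) were chosen after their values were seen. The members and lists were chosen with earlier results of these data known, and the list of genes of the Jα18-deficient pool was written from them. Zfp683, of the residency list, was not analysed here, and some genes are not reported here.

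Alternatives were TMM scaling (edgeR 4.0.16), centred ratios, equal weight of cells, thinned cells, cells of at most 60000 UMIs, other thresholds and filters, and single marker classes. Equal weight of the larger marker classes and leaving out the cell with most UMIs of a gene were added after seeing the data. The equal weight left out Cd8a cells without Ly49. Python 3.11.15 was used with numpy 2.4.6, pandas 2.3.3, scipy 1.17.1 and matplotlib 3.10.9.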

Additional observations from a re-analysis of the deposited data

Results flagged for a closer look

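Ly6c2, a Ly6 family gene of memory T cells and other leukocytes, differed between the pools in opposite directions in the larger marker classes. In cells with both markers its log2 ratio of CD1d-deficient over Jα18-deficient CPM was 1.01 (4806 and 4020 UMIs), and in Ly49 cells without Cd8a it was -1.06 (4268 and 52538 UMIs). The levels were 1077 and 535 CPM in the first class and 886 and 1851 CPM in the second. Klra3, the Ly49C gene, did the same, with a log2 ratio of 1.39 in cells with both markers (489 and 314 UMIs) and of -1.99 in Ly49 cells without Cd8a (168 and 3930 UMIs). A single cell held 29.3% of its CD1d-deficient and another 26.96% of its Jα18-deficient UMIs over all members. By these shares the first was a cell with both markers and the second a Ly49 cell without Cd8a. Klra3 ratios of the classes without these cells are not given here. With 1 pool per genotype, the differences of Ly6c2 and Klra3 were not tested.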

How the results depend on the processing

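With 1 pool per genotype, nothing here measures the spread between mice or libraries, and depth differed between the pools. No paired analysis was possible because the columns carry no library number, and leaving out each library was not run for the same reason. Members were 76.7% of CD1d-deficient and 51.1% of Jα18-deficient cells at a threshold of 1 per 10000 UMIs, 74.0% and 43.5% at a threshold of 2, and 90.5% of CD1d-deficient cells of 10000 to 60000 UMIs (68.8% of Jα18-deficient). The number of genes tested differed between settings. Genes at least 2-fold higher in CD1d-deficient and in Jα18-deficient members numbered 183 and 224 of 4727 by the mean over cells. In thinned cells they were 138 and 186 of 4204. Cells with both markers gave 531 and 631 of 4662, and Ly49 cells without Cd8a 511 and 568 of 4702. Cd8a cells without Ly49 (21 and 11 cells) gave 1074 and 1363 of 3837. A filter of 100 CPM gave 34 and 31 of 1623. With no filter there were 1720 and 2263 of 11238 genes with a UMI in each pool. Without the cell with most UMIs of the gene there were 125 and 367 of 4101. TMM scaling gave 339 and 265 of 4732.

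Log2 ratios of genes past 2-fold that changed sign follow, and the cause was not tested. In Cd8a cells without Ly49, the ratio was Cd5 0.22, Izumo1r 2.32, Slamf6 1.45, Tnfsf10 -2.87, Fcgr3 -3.07, Klrb1f -0.30, Itga2 -1.75, Ahr -1.18, Klf2 0.52, Foxo1 1.97, Ikzf2 4.43, Jun -3.41, H2-M3 -3.25, Gem -1.37, Ube2l6 -3.45 and Arhgap26 0.16. In Ly49 cells without Cd8a, the ratio was Serpinb6b -0.20 and Ccl4 -0.57. In cells with both markers, the ratio was Cd8a -0.0856, Cd28 0.31, Izumo1r 0.44, Slamf6 2.04, Serpina3f -0.27, Cd244 -0.36, Fcgr3 -0.62, Klrb1b -0.98, Itga2 -0.25, Ly6c1 0.22, Stmn1 1.06, Anxa1 0.0008 and Ints7 -0.39. With cells with both markers and Ly49 cells without Cd8a weighted the same, and Cd8a cells without Ly49 left out, the ratio was Cd8a -0.0771. In members of 10000 to 60000 UMIs, the ratio was Klri2 -0.86, Bach2 -0.68, Ikzf2 0.27, Bst2 0.19, Anxa1 0.27, Cyb561a3 -0.32 and Arhgap26 0.27. Without the cell with most UMIs of the gene, the ratio was Bach2 -0.10.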
